A study of Mus musculus with 8 samples.

Results

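The mitosis and spindle genes are 44 mouse genes of the G2 and M phases of the cell cycle. They encode the mitotic cyclins with Cdk1 and its phosphatases, the mitotic kinases, the spindle checkpoint, the activators of the anaphase-promoting complex, the chromosomal passenger complex, centromere and kinetochore proteins, mitotic kinesins, cytokinesis proteins and 2 transcription factors of this phase. They were chosen by name and not by their signal in these arrays, though with earlier results of these data known. Their probes were found by the accession each probe carries. The 44 genes are part of 21612 named genes on the array. They had 64 probes, of which 62 were tested. Gene expression was measured in AML12 cells, a mouse hepatocyte line established from the liver of a mouse carrying a transgene for human TGF-α. The control group was 4 samples of AML12 cells cultured for 24 h without irisin, and the irisin group was 4 samples cultured for 24 h with 0.5 µg/ml irisin, the hormone that is cleaved from Fndc5. Both groups grew in DMEM F-12 medium with fetal bovine serum, and each sample was hybridized to 1 one-color array. The study asked how irisin treatment affects gene expression in hepatocytes, whose growth it also examined. That growth was measured at higher irisin doses and at a later time than those of these arrays. The labels do not say whether replicates came from separate cultures, so p-values measure only the spread between these samples. All samples are of 1 cell line, and what is seen here holds for that line.

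During mitosis a cell condenses its chromosomes, attaches each sister chromatid to the spindle and pulls the sisters apart. CDK1 bound to cyclin A or B drives entry, Polo-like and Aurora kinases build the spindle, and the checkpoint proteins hold back CDC20 and the anaphase-promoting complex until all kinetochores are attached. Transcripts of most of these genes are made late in the cell cycle and are low in resting hepatocytes of the adult liver, so their levels are commonly read as signs of proliferation. Their promoters often carry a cell cycle genes homology region, the CHR, read by the MuvB complex with B-MYB and FOXM1 or with repressive partners. CCAAT boxes bound by NF-Y often lie nearby.

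The promoters of 4 genes that stand for separate roles are shown because many members hold these motifs, a feature the choice of the members did not use. All 4 hold both motifs, while 22 of the 37 member promoters examined did. Each run is the 250 bases before the annotated start, read 5′ to 3′ on the strand of the gene, from RefSeq for GRCm38.p6. Capitals mark the CHR (TTTGAA, or TTCAAA where it lies on the other strand) and the CCAAT box (CCAAT or ATTGG). Cdk1, the kinase of mitotic entry, lies on the minus strand with its window at chr10:69352913-69353162. Cdc20, which activates the anaphase-promoting complex, has its window at chr4:118437344-118437593 on the minus strand. The window of Kif11, the motor that separates the spindle poles, is chr19:37376132-37376381 on the plus strand. The window of Top2a, the topoisomerase that untangles sister chromatids, is chr11:99024190-99024439 on the minus strand.
Cdk1: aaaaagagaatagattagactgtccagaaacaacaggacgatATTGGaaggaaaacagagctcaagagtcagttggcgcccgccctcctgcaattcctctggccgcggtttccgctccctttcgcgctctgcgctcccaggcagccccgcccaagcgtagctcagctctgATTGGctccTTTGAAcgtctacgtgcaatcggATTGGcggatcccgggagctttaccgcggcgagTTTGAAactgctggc
Cdc20: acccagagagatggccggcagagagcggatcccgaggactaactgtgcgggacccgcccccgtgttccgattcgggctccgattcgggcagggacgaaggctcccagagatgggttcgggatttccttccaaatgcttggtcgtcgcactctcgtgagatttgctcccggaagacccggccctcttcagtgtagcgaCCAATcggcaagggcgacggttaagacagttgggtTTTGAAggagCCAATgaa
Kif11: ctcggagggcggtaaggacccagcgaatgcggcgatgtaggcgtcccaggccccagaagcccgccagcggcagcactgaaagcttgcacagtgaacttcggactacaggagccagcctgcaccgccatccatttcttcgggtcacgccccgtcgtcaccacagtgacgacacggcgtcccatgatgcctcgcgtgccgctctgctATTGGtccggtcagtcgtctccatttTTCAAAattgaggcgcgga
Top2a: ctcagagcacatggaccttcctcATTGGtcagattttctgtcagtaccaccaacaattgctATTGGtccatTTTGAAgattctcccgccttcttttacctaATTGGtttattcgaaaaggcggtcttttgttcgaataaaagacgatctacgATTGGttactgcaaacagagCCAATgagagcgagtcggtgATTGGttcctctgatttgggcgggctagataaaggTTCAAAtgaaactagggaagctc

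Counted from the start, with -1 as the last base before it, the CHR began at -15 in Cdk1, -18 in Cdc20, -19 in Kif11 and -23 in Top2a. Cdk1 held another CHR at -71 and Top2a another at -179. Top2a held 6 CCAAT boxes in this window, Cdk1 3, Cdc20 2 and Kif11 1. The promoter table held 37 of the 44 genes, counted from 250 bases before to 50 bases after the start. It held no entry for Aurkb, Ccna2, Cdc25c, Foxm1, Incenp, Kif20a and Tpx2. On either strand, a CHR was found in 25 of the 37 promoters (67.6%) and in 18.1% of 27025 promoters of all genes. The match began within 50 bases of the start in 23 of these 25. A CCAAT box was found in 28 of the 37 (75.7%, against 37.9% of all), and both motifs in 22 (59.5%, against 7.12%). The E2F site TTTNNCGC was found in 4 (10.8%, against 5.27%), and in 1 member promoter matches of 2 motifs overlapped. The median log2 change after irisin treatment was -0.043 over the 25 genes with a CHR and -0.088 over the 12 without, a description with no test. These are matches of letters and not measured binding.

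Array-wide facts that touch these genes were as follows. Among non-control probes, 59.5% to 63.6% exceeded background clearly on control arrays and 61.8% to 64.1% on irisin arrays. Background-subtracted signals had a 75th percentile of 372 to 534 on control and 682 to 850 on irisin arrays, so irisin arrays were brighter before scaling. All control arrays shared 1 slide and 1 scan, and all irisin arrays shared another slide and scan, so the treatment cannot be told apart from the slide or the scan. All 10 hepatocyte markers, Alb and Hnf4a among them, were detected well above background on each of the 8 arrays, with summed scaled signals of 474 to 526 on control and 385 to 461 on irisin arrays. The cholangiocyte markers Krt19, Krt7, Sox9 and Spp1 were detected on all 8 arrays as well (4 of 5 markers, summed signals 55.3 to 61.9 and 57.9 to 60.9). For stellate cells 3 of 6 markers were (0.102 to 0.152 and 0.0676 to 0.0887), with Des, Pdgfrb and Lrat on no array. For endothelial cells 2 of 5 were (0.701 to 0.788 and 0.413 to 0.584), with Cdh5 and Tek on no array. For macrophages 2 of 5 were (0.536 to 0.632 and 0.456 to 0.540). The part of these shifts in the results was not tested.

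After scaling each array to its 75th percentile, most mitosis and spindle genes were detected on all arrays and 1 of the 44 was called. Of the 44 genes, 43 were well above background on all 8 arrays, and Cenpf was so on 3 control and 4 irisin arrays. A gene was called when its brightest tested probe changed at least 1.5-fold with an adjusted p under 0.05 (limma, Benjamini-Hochberg over all 24092 tested probes). No member was called higher, where 0.531% of 14311 tested genes were called higher. Aurkb was the 1 member called lower (2.27%), where 10.2% of all tested genes were called lower. Both shares depend on the scaling. With scaling to the spike-in probes 16 members (36.4%, against 33.3% of all tested genes) were called higher and 0 lower (1.29% of all), and with no scaling between arrays 35 members (79.5%, against 66.8% of all) were called higher and 0 lower (0.566% of all). Plk4, Nek2, Ttk, Ccna2, Kif11, Kif23, Anln and Foxm1 were among the members called higher in both of these settings. In both, 20 of the 21 members described below array by array had a change above 0, the exception being Aurkb. With the 75th percentile and an unadjusted p under 0.05, 2 members were higher (5.94% of all tested genes) and 3 lower (23.6% of all). The arrays hold bulk RNA, in which fewer cells in mitosis and less RNA per cell cannot be told apart.

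The changes of the members lay close to 0 on the log2 scale and close to those of the other genes. Their median was -0.044, a ratio of 0.970, and the median over all tested genes was -0.064. The middle of the distribution, between the quartiles, ran from -0.13 to 0.073 for the members and from -0.22 to 0.057 for all tested genes. A change above 0 was seen in 16 members (36.4%), and in 36.0% of all tested genes. The median size of the change without its sign was 0.11 for the members and 0.14 for all tested genes. The lowest value was Aurkb at -0.94, followed by Plk1 at -0.29, and the highest was Plk4 at 0.47. For 35 members (79.5%, against 75.2% of all tested genes) the whole 95% interval lay within 1.5-fold of no change. For 41 members (93.2%, against 94.0%) the interval lay below a 1.5-fold increase. The interval reached a 1.5-fold increase for 3 members and a 1.5-fold decrease for 6, Aurkb among them. The sign of the median turned with the scaling, to 0.53 when scaled to the spike-in probes and 0.69 when not scaled, and the median over all tested genes moved with it to 0.51 and 0.67.

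**Figure D1:**
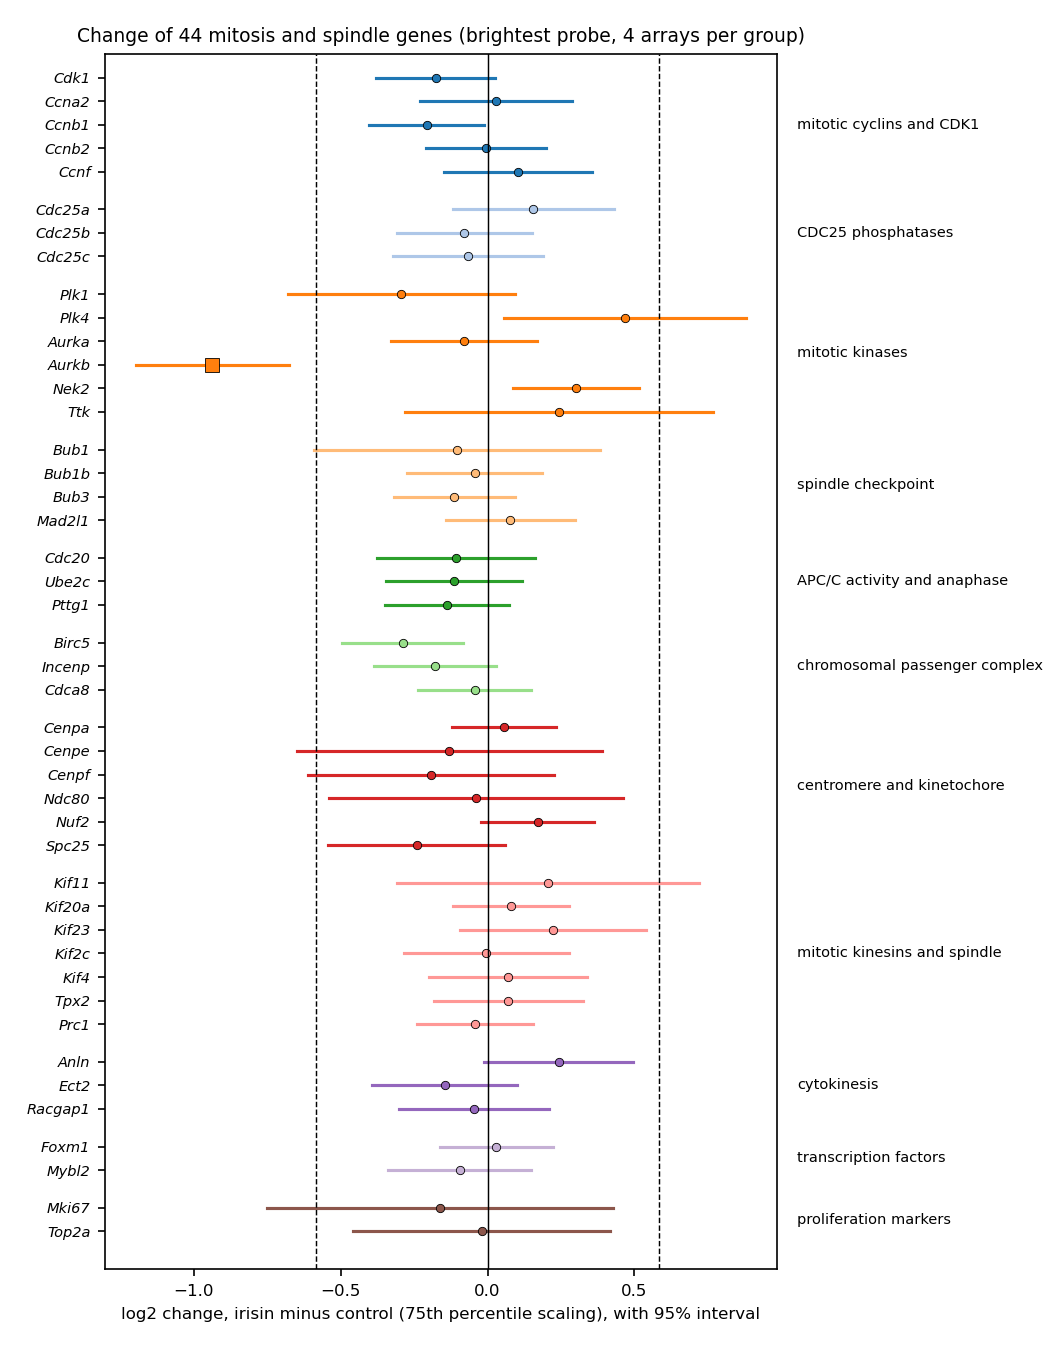
Log2 change of the 44 genes, irisin minus control, with the 95% interval of the limma fit (4 arrays per group, scaled to the 75th percentile), colored and grouped by role, with dashed lines at 1.5-fold. The interval of Aurkb (square) lies wholly beyond the lower line, that of no gene lies wholly beyond the upper line, and with spike-in scaling or no scaling the changes shift upwards as a group.

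**Figure D2:**
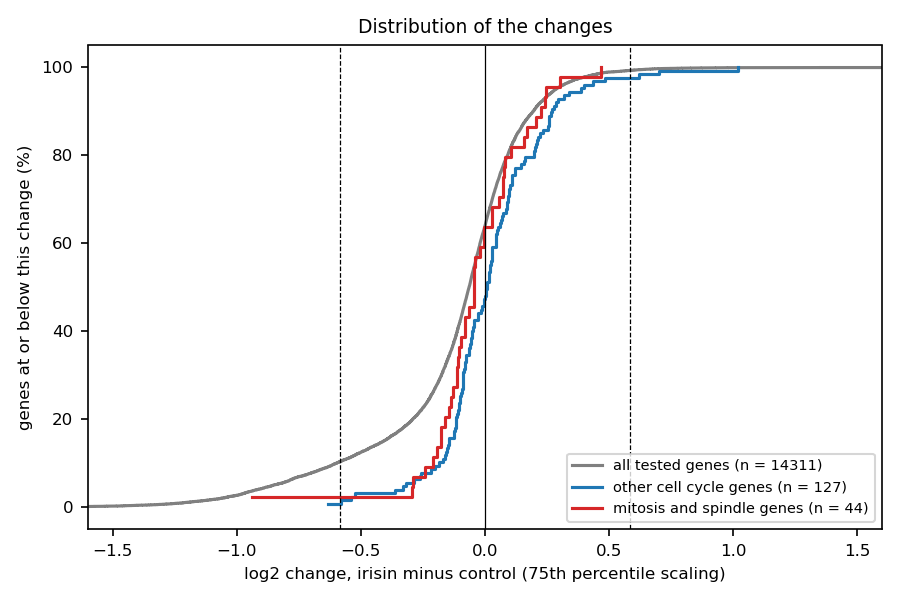
Cumulative share of genes (percent) against the log2 change, irisin minus control, for all 14311 tested genes (gray), 127 other cell cycle genes (blue) and the 44 mitosis and spindle genes (red), scaled to the 75th percentile, with dashed lines at 1.5-fold. The red curve crosses 0 near the gray curve and lacks its long lower tail apart from Aurkb, and with spike-in scaling or no scaling the medians move above 0.

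The mitotic cyclins and CDK1 were not called on their brightest probes (0 of 5, median -0.0043, range -0.21 to 0.10). Signals of single genes are given as log2 values with the 75th percentile of the array at 0, changes are differences of these, array numbers are the replicate numbers of the labels, and adjusted p-values are from limma. Cdk1 log2 signals were 3.14, 3.07, 3.00 and 2.90 on control arrays 1 to 4 and 2.89, 3.01, 2.73 and 2.79 on irisin arrays 1 to 4. Irisin array 2 lay within the control range and the other irisin arrays below it, and the change was -0.18 (95% interval -0.38 to 0.027, adjusted p = 0.209). Ccnb1 log2 signals were 3.48, 3.36, 3.38 and 3.21 on control arrays 1 to 4 and 3.25, 3.08, 3.06 and 3.21 on irisin arrays 1 to 4. Ccnb1 encodes cyclin B1, the partner of CDK1 at mitotic entry. Irisin arrays 2 and 3 lay below all control arrays while the other two overlapped them, and the change was -0.21 (95% interval -0.40 to -0.011, adjusted p = 0.126). Ccna2 log2 signals were 3.49, 3.31, 3.35 and 3.1 on control arrays 1 to 4 and 3.47, 3.06, 3.46 and 3.37 on irisin arrays 1 to 4. Ccna2 encodes cyclin A2, which acts in S phase and early mitosis. The groups overlapped with irisin array 2 lowest, and the change was 0.028 (95% interval -0.23 to 0.29, adjusted p = 0.903). Ccnb2 and Ccnf, for cyclin B2 and cyclin F, had changes of -0.0043 and 0.10. With no scaling the changes of Cdk1 and Ccnb1 were above 0 (0.56 and 0.53).

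Cdk1 was the gene whose probes differed most. On its second probe, Cdk1 log2 signals were -1.37, -1.34, -1.11 and -1.13 on control arrays 1 to 4 and -2.03, -1.89, -1.99 and -2.16 on irisin arrays 1 to 4. All irisin arrays lay below all control arrays, and the change of -0.78 (95% interval -0.99 to -0.56, adjusted p = 0.000288) passed the call (limma, exact two-sided permutation p = 0.0286). That p is the smallest that 70 assignments of the 8 arrays can give. On the third probe, Cdk1 log2 signals were -4.56, -4.39, -4.29 and -4.55 on control arrays 1 to 4 and -4.79, -4.78, -4.71 and -4.68 on irisin arrays 1 to 4. The groups again did not overlap, and the change was -0.29 (95% interval -0.49 to -0.098, adjusted p = 0.0325), below 1.5-fold. With quantile normalization and cyclic loess the change of the third probe was near 0 (-0.014 and 0.0092), with spike-in scaling and without scaling it was above 0 (0.28 and 0.45), and it passed the adjusted p in the same direction in 10 of 21 alternatives. The intervals of the first and the second probe did not overlap. The second probe was called in 19 of 21 alternatives, and was not with spike-in scaling or no scaling (adjusted p from 5.69e-05 to 0.843 over the alternatives, limma). The unscaled signal of this probe was 203 ± 45.7 on control and 193 ± 7.68 on irisin arrays (mean ± S.D., n = 4), and that of the first probe 3839 ± 437 and 5646 ± 283. What part of the transcript each probe covers was not examined here. Among the 62 tested member probes, this probe and the Aurkb probe were the 2 called lower (3.23%, against 11.7% of all tested probes), and none was called higher (0.714% of all).

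The CDC25 phosphatases, which remove inhibitory phosphates from CDK1 and CDK2, were not called (0 of 3). Their changes were 0.16 for Cdc25a, -0.080 for Cdc25b and -0.065 for Cdc25c, and all 3 intervals lay within 1.5-fold. Cdc25a was low on control array 2 (1.91, against 2.37 to 2.45 on the other control arrays).

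The mitotic kinases held the widest spread of changes, with 1 of 6 called lower, 0 called higher and a median of 0.082. Aurkb encodes Aurora B, the catalytic subunit of the chromosomal passenger complex. Aurkb log2 signals were -3.01, -2.72, -2.58 and -2.62 on control arrays 1 to 4 and -3.74, -3.50, -3.59 and -3.85 on irisin arrays 1 to 4. Every irisin array lay below every control array by at least 0.49 on the log2 scale. The group means were -2.73 ± 0.19 and -3.67 ± 0.16 (mean ± S.D., n = 4). Aurkb was 0.522-fold of control, a change of -0.94 with a standard error of 0.12 (95% interval -1.20 to -0.68, limma adjusted p = 0.000295, exact two-sided permutation p = 0.0286). The size of this change depended on the scaling. Before scaling, the Aurkb signals were 46.2, 73.8, 89.0 and 81.0 on the control arrays and 59.6, 60.4, 66.6 and 58.8 on the irisin arrays. These unscaled values overlapped (72.5 ± 18.6 and 61.3 ± 3.56). The direction was the same but the call was lost when arrays were scaled to the spike-in probes (-0.36, limma adjusted p = 0.166) or not scaled (-0.20, limma adjusted p = 0.324), the range of the adjusted p over 20 alternatives being 5.64e-05 to 0.324. Aurkb was called in each fit without 1 array, with changes from -1.03 to -0.88. Aurkb had 1 tested probe, so no other probe of this gene can be compared. The Aurkb probe was among the dimmest that stand for a member, with those of Ttk (control mean -2.87), Plk4 (-2.61) and Cenpf (-5.95).

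Plk4, the kinase that starts centriole duplication, had the most positive change. Plk4 log2 signals were -2.69, -2.40, -2.55 and -2.79 on control arrays 1 to 4 and -1.88, -2.71, -1.76 and -2.21 on irisin arrays 1 to 4. Irisin arrays 1, 3 and 4 lay above all control arrays and irisin array 2 within the control range. The change was 0.47 (95% interval 0.055 to 0.88, adjusted p = 0.0999) and was not called. Without irisin replicate 2 it was called higher (0.66, limma adjusted p = 0.00478, with a range of 7.91e-05 to 0.262 over 20 alternatives). Nek2 log2 signals were 0.86, 1.05, 1.10 and 0.99 on control arrays 1 to 4 and 1.10, 1.36, 1.43 and 1.31 on irisin arrays 1 to 4. Nek2 encodes a kinase that frees the centrosomes from each other before they separate. Every irisin array lay above every control array, by as little as 0.00076, and the change was 0.30 (95% interval 0.088 to 0.52, adjusted p = 0.0434), a ratio of 1.23, which is under the 1.5-fold threshold. Ttk log2 signals were -2.70, -2.62, -2.98 and -3.17 on control arrays 1 to 4 and -2.27, -3.36, -2.18 and -2.69 on irisin arrays 1 to 4. Ttk encodes MPS1, a kinase of the spindle checkpoint. Its irisin arrays held the lowest (array 2) and the highest (array 3) of the 8 signals, and the change was 0.24 (95% interval -0.28 to 0.77, adjusted p = 0.529), while with normexp background correction its sign turned (-0.079). Without irisin replicate 2 the change of Ttk was 0.49 (limma adjusted p = 0.0484), still under 1.5-fold, and without irisin replicate 3 it was 0.097.

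Plk1 log2 signals were 4.09, 4.09, 4.26 and 4.16 on control arrays 1 to 4 and 3.84, 4.26, 3.29 and 4.04 on irisin arrays 1 to 4. Plk1 encodes Polo-like kinase 1, which acts from mitotic entry to cytokinesis. Irisin array 3 was the lowest of the 8 and irisin array 2 the highest, and the change was -0.29 (95% interval -0.68 to 0.094, adjusted p = 0.278). It was -0.11 without irisin replicate 3 and -0.43 without irisin replicate 2. Aurka log2 signals were 3.73, 3.57, 3.54 and 3.49 on control arrays 1 to 4 and 3.38, 3.79, 3.32 and 3.52 on irisin arrays 1 to 4. Aurka encodes Aurora A, the centrosomal relative of Aurora B. The groups overlapped, again with irisin array 2 highest and irisin array 3 lowest, and the change was -0.080 (95% interval -0.33 to 0.17, adjusted p = 0.681). With no scaling the changes of Plk1 and Aurka were above 0 (0.45 and 0.66), and that of Aurka passed the call.

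**Figure D3:**
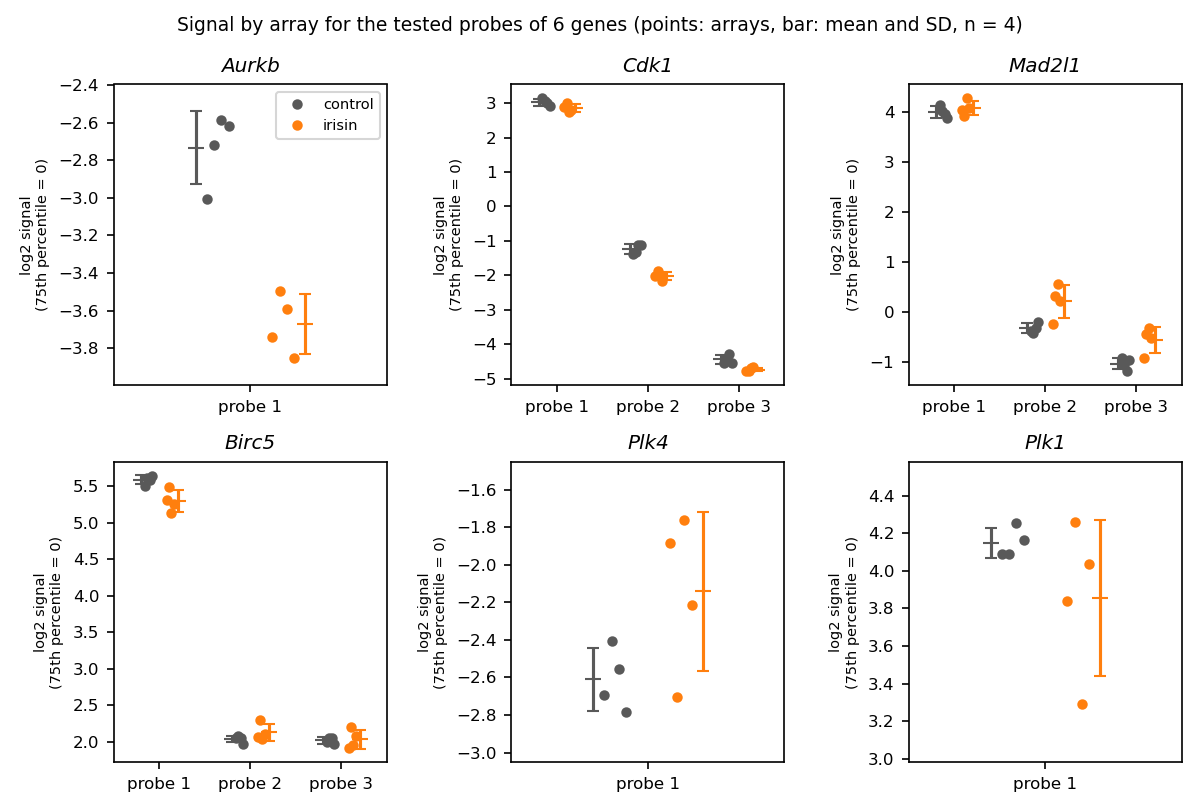
Signal on a log2 scale, with the array's 75th percentile at 0, for each tested probe of Aurkb, Cdk1, Mad2l1, Birc5, Plk4 and Plk1, with points for the 4 control arrays (gray) and the 4 irisin arrays (orange) and bars for mean and S.D. Within a probe, the groups are apart for Aurkb and for the second Cdk1 probe, and irisin array 2 of Plk4 (-2.71) lies among the control arrays; heights of different probes are not comparable, and neither of the first pair was called with spike-in scaling or no scaling.

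The spindle checkpoint genes were not called on their brightest probes (0 of 4, median -0.073). Bub1b log2 signals were 0.80, 1.07, 1.02 and 0.77 on control arrays 1 to 4 and 1.01, 0.88, 0.69 and 0.91 on irisin arrays 1 to 4. Bub1b encodes BUBR1, part of the complex that inhibits CDC20. Irisin array 3 was the lowest of the 8, the groups overlapped, and the change was -0.043 (95% interval -0.27 to 0.19, adjusted p = 0.822). Bub1 and Bub3, which bring checkpoint proteins to kinetochores, had changes of -0.10 and -0.11. Mad2l1 encodes MAD2, which binds CDC20 directly, and its probes differed. Mad2l1 log2 signals were 4.14, 4.01, 3.95 and 3.87 on control arrays 1 to 4 and 4.03, 3.91, 4.27 and 4.06 on irisin arrays 1 to 4. The groups overlapped, with a change of 0.077 (95% interval -0.14 to 0.30, adjusted p = 0.649). On the second probe, Mad2l1 log2 signals were -0.39, -0.43, -0.33 and -0.20 on control arrays 1 to 4 and -0.25, 0.30, 0.55 and 0.21 on irisin arrays 1 to 4. Here irisin arrays 2 to 4 lay above all control arrays, and the change was 0.54 (95% interval 0.21 to 0.87, adjusted p = 0.0220). On the third probe, Mad2l1 log2 signals were -0.94, -1.06, -1.20 and -0.97 on control arrays 1 to 4 and -0.93, -0.46, -0.33 and -0.53 on irisin arrays 1 to 4. The groups did not overlap, though only narrowly, with irisin array 1 at -0.931 and control array 1 at -0.937. The change was 0.48 (95% interval 0.19 to 0.76, adjusted p = 0.0192). Both changes were under 1.5-fold. Without irisin replicate 1 the second and the third probe were called higher, and without control replicate 4 the second was.

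The genes that act at anaphase onset were not called (0 of 3, all with a change below 0 at this scaling, median -0.11). Cdc20 log2 signals were 4.37, 4.34, 4.31 and 4.28 on control arrays 1 to 4 and 4.03, 4.58, 4.03 and 4.23 on irisin arrays 1 to 4. Irisin arrays 1, 3 and 4 lay below all control arrays and irisin array 2 above all of them. The change of Cdc20 was -0.11 (95% interval -0.38 to 0.16, adjusted p = 0.599), and without irisin replicate 2 it was -0.23. Ube2c, the ubiquitin-conjugating enzyme of the anaphase-promoting complex, had a change of -0.11, and Pttg1, which encodes securin, the inhibitor of separase, -0.14. Ube2c was low on irisin array 1 (2.58). With no scaling the change of Cdc20 was above 0 (0.63) and passed the call.

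The other subunits of the chromosomal passenger complex, which Aurora B belongs to, were not called (0 of 3, all with a change below 0 at this scaling, median -0.18). Birc5 log2 signals were 5.50, 5.61, 5.58 and 5.64 on control arrays 1 to 4 and 5.31, 5.49, 5.13 and 5.25 on irisin arrays 1 to 4. Birc5 encodes survivin, which places the complex at centromeres. All irisin arrays lay below all control arrays, and the change was -0.29 (95% interval -0.49 to -0.085, adjusted p = 0.0431), a ratio of 0.818. By adjusted p alone on the brightest probes, with no fold threshold, Birc5 and Aurkb were the 2 members that were lower (17.9% of all tested genes). Nek2 was the 1 that was higher (2.65%). In the same direction, Aurkb passed the adjusted p in 18 of 20 alternatives, Birc5 in 8 and Nek2 in 11. The change of Birc5 was -0.058 (adjusted p = 0.665) with quantile normalization and -0.12 (adjusted p = 0.330) with cyclic loess, and its adjusted p, from 0.00833 to 0.665 over the alternatives, passed in 1 of the 8 fits without 1 array, that without irisin replicate 2. The adjusted p of Nek2, from 7.35e-05 to 0.122, likewise passed in 1 of these 8, that without irisin replicate 1. The lower signal of Birc5 was seen on 1 of its 3 probes, since the others had changes of 0.090 (adjusted p = 0.508) and 0.016 (adjusted p = 0.927). With no scaling and spike-in scaling the change of the first probe was above 0 (0.45 and 0.29). Incenp, the scaffold of the complex, had a change of -0.18 on its brightest probe (adjusted p = 0.215). On its other tested probe all irisin arrays lay below all control arrays. The change there was -0.28 (95% interval -0.47 to -0.083, adjusted p = 0.0409), under 1.5-fold, and the alternatives were not examined for that probe. Cdca8, which encodes borealin, had a change of -0.044 (adjusted p = 0.779).

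The centromere and kinetochore genes were not called (0 of 6, median -0.085). Cenpf log2 signals were -6.20, -5.53, -6.02 and -6.06 on control arrays 1 to 4 and -5.79, -6.37, -5.89 and -6.53 on irisin arrays 1 to 4. Cenpf encodes a large protein of the outer kinetochore. Its probe passed the filter only through the irisin group. The unscaled signal was dim, at 7.81 ± 2.24 on control and 11.4 ± 3.07 on irisin arrays (mean ± S.D., n = 4). The groups overlapped, and the change was -0.19 (95% interval -0.61 to 0.23, adjusted p = 0.538). Its value moved with the processing, to -0.52 with normexp and to 0.29 with both quantile normalization and cyclic loess. Spc25 log2 signals were 4.06, 3.88, 3.65 and 3.67 on control arrays 1 to 4 and 3.63, 3.22, 3.74 and 3.70 on irisin arrays 1 to 4. Spc25 belongs to the NDC80 complex, which binds spindle microtubules. Irisin arrays 1 and 2 lay below all control arrays, array 2 by the wider margin, and the change was -0.24 (95% interval -0.54 to 0.061, adjusted p = 0.251), or -0.12 without irisin replicate 2. Ndc80 and Nuf2, of the same complex, had changes of -0.039 and 0.17. All irisin arrays lay above all control arrays for Nuf2 (adjusted p = 0.197), so that, with Nek2, 2 members had irisin arrays wholly above the control arrays (4.16% of all tested genes). Aurkb and Birc5 were the 2 with irisin arrays wholly below (19.7% of all), both counts being on the brightest probes. Cenpa, the histone variant of centromeres, had a change of 0.056 and Cenpe, a kinesin of the kinetochore, -0.13. Cenpa was low on control array 4 (1.89) and Nuf2 high on irisin array 3 (0.39). With no scaling the changes of Cenpf and Spc25 were above 0 (0.55 and 0.50).

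The mitotic kinesins and spindle genes were not called (0 of 7, median 0.071, 5 with a change above 0). Kif11 log2 signals were -1.0, -1.11, -1.23 and -1.31 on control arrays 1 to 4 and -0.60, -1.76, -0.52 and -0.93 on irisin arrays 1 to 4. Irisin arrays 1, 3 and 4 lay above all control arrays, and irisin array 2 was the lowest of the 8. The change of Kif11 was 0.21 (95% interval -0.31 to 0.72, adjusted p = 0.596). Without irisin replicate 2 it was 0.47 (limma adjusted p = 0.0150), still under 1.5-fold, and without irisin replicate 3 it was 0.064. Kif23 log2 signals were 1.74, 1.67, 1.65 and 1.51 on control arrays 1 to 4 and 1.97, 1.44, 2.19 and 1.88 on irisin arrays 1 to 4. Kif23 encodes a motor of the central spindle that works with the product of Racgap1 in cytokinesis. Its arrays took the same order, with irisin array 2 lowest, and the change was 0.22 (95% interval -0.094 to 0.54, adjusted p = 0.315). It was 0.37 without irisin replicate 2 (limma adjusted p = 0.0189), still under 1.5-fold, and 0.12 without irisin replicate 3. Kif20a and Prc1, also of the central spindle, had changes of 0.081 and -0.043. Kif2c, which takes apart microtubule ends, had a change of -0.0050, Kif4, a chromosome-bound kinesin, 0.071 and Tpx2, an activator of Aurora A, 0.071.

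The cytokinesis genes were not called (0 of 3, median -0.046). Anln log2 signals were 3.91, 3.85, 3.93 and 3.64 on control arrays 1 to 4 and 4.00, 3.86, 4.34 and 4.11 on irisin arrays 1 to 4. Anln encodes anillin, a scaffold of the contractile ring. Irisin arrays 1, 3 and 4 lay above all control arrays and array 2 within their range, and the change was 0.24 (95% interval -0.011 to 0.50, adjusted p = 0.164). Ect2, which activates RhoA at the cleavage site, had a change of -0.15, and Racgap1 -0.046. The transcription factors were not called (0 of 2). Foxm1 log2 signals were 2.08, 1.91, 2.16 and 1.99 on control arrays 1 to 4 and 1.94, 2.15, 2.05 and 2.11 on irisin arrays 1 to 4. The groups overlapped, and the change of Foxm1 was 0.030 (95% interval -0.16 to 0.22, adjusted p = 0.856). Mybl2 log2 signals were 2.80, 2.84, 3.01 and 2.83 on control arrays 1 to 4 and 2.48, 2.96, 2.81 and 2.83 on irisin arrays 1 to 4. Mybl2 encodes B-MYB. Irisin array 1 was the lowest of the 8 and the other irisin arrays lay within the control range, and the change was -0.095 (95% interval -0.34 to 0.15, adjusted p = 0.610), with no scaling 0.64.

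The proliferation markers were not called (0 of 2). Mki67 log2 signals were 3.14, 3.76, 2.84 and 3.13 on control arrays 1 to 4 and 3.20, 2.30, 3.62 and 3.11 on irisin arrays 1 to 4. Mki67 encodes Ki-67, the antigen commonly stained to count cycling cells. Irisin array 2 was the lowest of the 8 and control array 2 the highest, and the change was -0.16 (95% interval -0.75 to 0.43, adjusted p = 0.731), so that both a 1.5-fold decrease and smaller increases lie inside the interval. The sign turned without irisin replicate 2 (0.091) and without control replicate 2 (0.017), and the change was -0.35 without irisin replicate 3. On the other tested probe the change of Mki67 was 0.085 (adjusted p = 0.882). Top2a log2 signals were 1.40, 1.51, 1.27 and 0.98 on control arrays 1 to 4 and 1.61, 0.66, 1.51 and 1.29 on irisin arrays 1 to 4. Irisin array 2 was the lowest and irisin array 1 the highest of the 8, and the change of Top2a was -0.019 (95% interval -0.46 to 0.42, adjusted p = 0.962). Without irisin replicate 2 it was 0.18 and with no scaling 0.72.

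The spread between replicates was larger in the irisin group for many of these genes. The S.D. over the 4 irisin arrays was larger than over the 4 control arrays in 34 of 44 members (77.3%), and in 66.2% of all tested genes. The median S.D. of the members was 0.11 in control and 0.19 in irisin arrays, and that of all tested genes was 0.11 and 0.15. Irisin replicates 2 and 3 often stood at opposite ends. Irisin replicate 2 was the lowest and irisin replicate 3 the highest of the 8 arrays for Ttk, Bub1, Kif11, Kif23, Kif4, Tpx2 and Ect2 (7 members, 15.9%, against 5.03% of all tested genes). The order was turned for Plk1, Aurka, Cdc20 and Cdca8 (4 members, 9.09%, against 5.91%). Irisin replicate 2 was also the lowest of the 8 for Ccna2, Cenpe, Ndc80, Spc25, Mki67 and Top2a, which makes 13 members (29.5%, against 14.5% of all tested genes), and the highest for 10 (22.7%, against 22.2%). Among the irisin arrays alone, replicate 2 was the lowest in 17 members (38.6%, against 22.7%) and the highest in 17 (38.6%, against 50.5%). Among the control arrays, replicate 4 was the lowest of the 4 in 25 members (56.8%, against 21.0% of all tested genes). Without irisin replicate 2, 1 member was called higher (Plk4), 1 lower (Aurkb) and the median was -0.024. This grouping of genes by array was seen in the data and has no test.

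**Figure D4:**
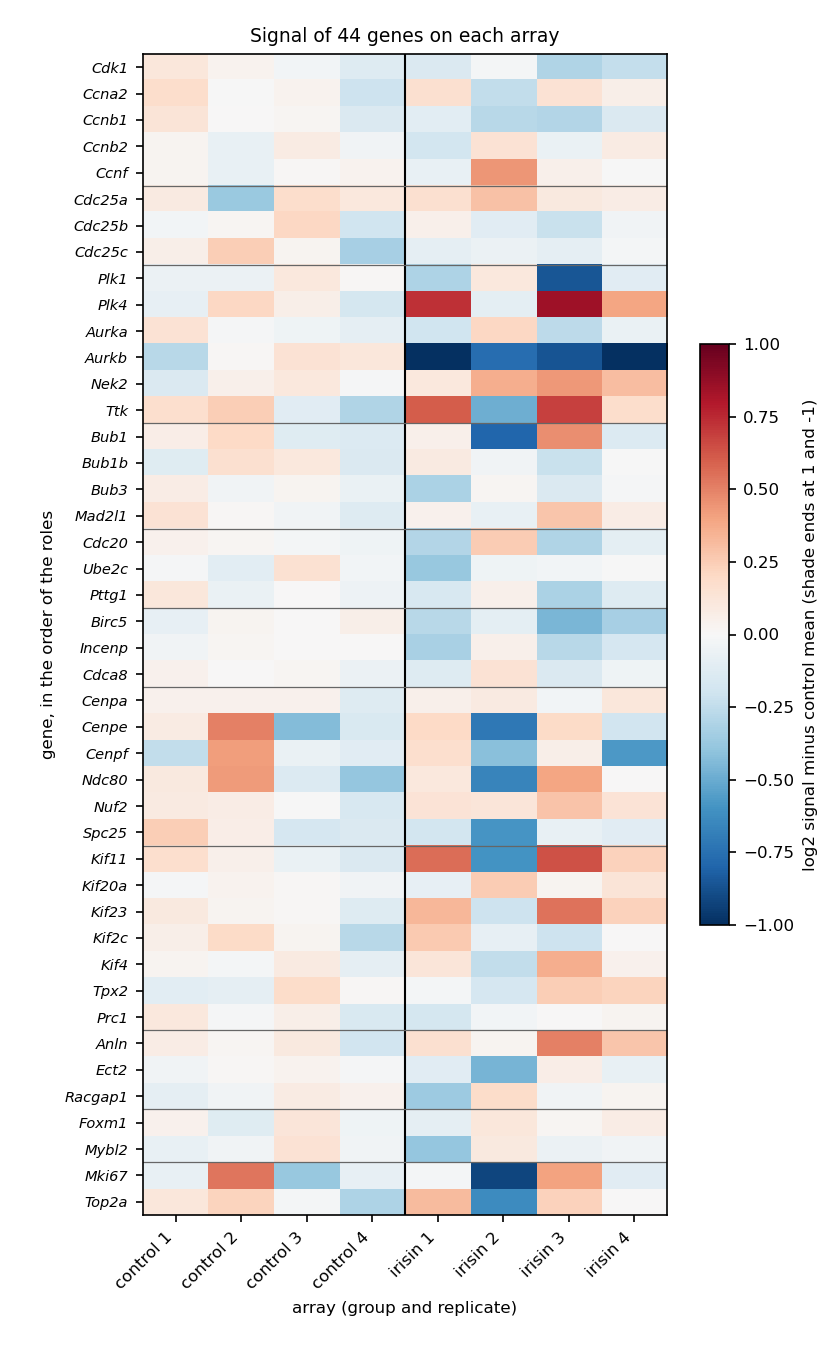
Log2 signal of the 44 genes (rows, in the order of their roles) on the 4 control and 4 irisin arrays (columns), scaled to the 75th percentile and shown as the difference from the mean of the control arrays of the gene, with shades ending at 1 and -1. Aurkb is low on all 4 irisin arrays, and irisin replicate 2 departs from the others for Bub1, Ttk, Kif11, Cenpe, Mki67 and Top2a; with spike-in scaling or no scaling the irisin columns shift upwards.

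Several members had more than 1 tested probe. Of the 44 genes, 30 had 1 and 14 had 2 or 3. The probes of a gene had the same sign of change in 6 of the 14 and opposite signs in 8. The median distance between the lowest and the highest change of a gene was 0.15. The intervals all overlapped in 12 of the 14, the exceptions being Cdk1 and Ccnb1. The probes of Ccnb1 had changes of -0.21, 0.22 and 0.070, with adjusted p-values of 0.126, 0.109 and 0.647 (limma). The 2 probes that were not tested, of Nuf2 and Mybl2, were well above background on no array.

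The direction of these changes followed the scaling between arrays, as it did for all genes. The median of the members was -0.033 after normexp background correction, -0.0077 after quantile normalization, 0.017 after cyclic loess and -0.056 when arrays were scaled to the median of their detected probes. Over all tested genes the median was -0.10, 0.0052, 0.023 and -0.077 in the same settings. With spike-in scaling the members exceeded the median of all tested genes by 0.021 and with no scaling by 0.021. Over 23 settings this difference lay between -0.042, without control replicate 4, and 0.15, with no filter on dim probes. Changes of the members are given relative to the bulk of the genes on the array, and the files hold no measure of RNA per cell.

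**Figure D5:**
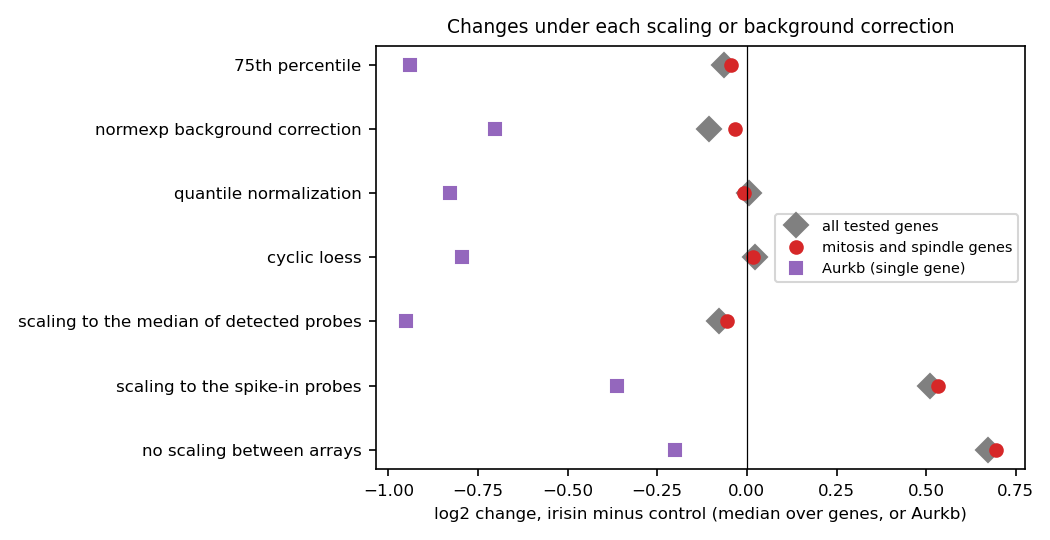
Median log2 change, irisin minus control, over the 44 genes (red) and over all tested genes (gray), with the change of Aurkb (purple), under 7 ways of background correction and scaling. Red and gray symbols move together, below or near 0 in 5 settings and to 0.53 and 0.69 (red) with spike-in scaling and no scaling, while Aurkb stays below 0 in all 7.

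Other genes of the mitotic and cell cycle machinery were examined in 7 lists. Of 129 names, 128 had a probe, Kif14 had no probe matched, and 127 were tested. A total of 3, of which Mybl1 was tested only through the group where it was high, were called higher (0.531% of all tested genes) and 0 lower (10.2% of all), with a median change of 0.0068. The lists had medians of 0.088 for 31 other centromere and kinetochore genes, -0.057 for 21 other spindle and cytokinesis genes, -0.00045 for 19 genes of condensin, cohesin and separase and -0.050 for 19 subunits and regulators of the anaphase-promoting complex. They were 0.043 for 10 genes of the CDK1 switch, 0.051 for 12 MuvB and E2F partners and -0.088 for 15 G1 cyclins, CDKs and CDK inhibitors. Ska2 log2 signals were -1.03, -1.06, -1.32 and -0.94 on control arrays 1 to 4 and -0.54, -0.56, -0.21 and -0.56 on irisin arrays 1 to 4. Ska2 encodes a subunit of the kinetochore complex that follows microtubule ends. All irisin arrays lay above all control arrays, and Ska2 rose by 0.62 (95% interval 0.37 to 0.87, limma adjusted p = 0.00229), but the call was lost without irisin replicate 3 (0.54), without control replicate 3 (0.54) and with normexp (0.46). On its brightest probe, Cep55 log2 signals were -1.91, -1.70, -2.16 and -2.08 on control arrays 1 to 4 and -1.03, -1.93, -0.84 and -1.25 on irisin arrays 1 to 4. Cep55 acts at the midbody in the last step of cytokinesis. Irisin array 2 lay within the control range, and the change of 0.70 (95% interval 0.24 to 1.17, adjusted p = 0.0319) was called. On its other probe the change of Cep55 was -0.40 (adjusted p = 0.0202), of opposite sign. The call of Cep55 was lost in 8 of 21 alternatives, 6 of them fits without 1 array: control replicate 1 (0.72), 3 (0.64) or 4 (0.66), or irisin replicate 1 (0.63), 3 (0.56) or 4 (0.70). Mybl1, for A-MYB, was called higher (limma adjusted p = 0.0127) and passed the filter only through the irisin group, since it was well above background on 4 irisin and 0 control arrays. With the control mean set at the lowest signal well above background on each control array (-6.69), the irisin mean of Mybl1 (-6.42) was 1.21-fold higher. Irisin arrays 2 (-6.93) and 4 (-6.96) lay below that value, so no minimum fold can be given. The call was lost with the test of the study's methods, and with normexp the sign was turned (-0.45).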

How the data were processed

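Gene expression was measured in 8 samples of AML12 cells, grouped by their deposited labels. RNA was labeled with Cy3 and hybridized to Agilent one-color arrays. The authors deposited Feature Extraction 12.0.3.1 scanner output and a value table, in which each intensity is linear, with background subtracted and arrays not scaled to each other. The value table equals the mean intensity over the spots of a probe.

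Spots that were controls or marked as outliers were left out, and the log2 of the processed signal minus the 75th percentile of its array was used. Probes were named by accession through the RefSeq table of GRCm38.p6 (28663 of 39429, 72.7%). A probe was tested when all 4 arrays of either group showed it well above background (24092 probes, 14311 genes) with lmFit and eBayes of limma 3.58.1 in R 4.3.3. They were called at 1.5-fold and an adjusted p under 0.05 (Benjamini-Hochberg). Each gene was represented by its brightest tested probe. Promoter motifs were counted as strings of letters.

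The members, lists, tests and alternatives were chosen with earlier results of these data known. Values on each array are given for members called on any probe, the 5 most positive and 5 most negative changes and a core of 15 genes, and other values were chosen after they were seen. Alternatives covered background correction (normexp, offset 50, on the median spot signal in place of the mean, 8 and 5 spots with a net signal more negative than that offset on irisin replicates 2 and 4 left out), scaling, filter, variance model, the test of the study's methods, the replicate block and each array left out. The number of arrays limits the precision. On simulated arrays for this comparison (24022 probes), 95.5% of 200 changed probes were recovered, 91% at a log2 change of 1 and 100% at 2, and 5 unchanged probes were called. The simulated noise was independent between probes and held no difference between slides. Changes smaller than a log2 change of 1 were not simulated, so these shares do not cover the size of most member changes. Python 3.11.15, pandas 2.3.3 and matplotlib 3.10.9 read the files and drew the plots. The study's liver arrays were not used.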

Additional observations from a re-analysis of the deposited data

Results flagged for a closer look

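On the log2 scale with the array's 75th percentile at 0, within the groups of 4 arrays, the signals of the members and of the 3 other called genes were checked for a single array that stood far from its group. Of 94 groups, 5 held such an array, and chance alone gives about 1 in 20. Cdc25a was 1.91 on control replicate 2 and 2.37 to 2.45 on the other control arrays. Ube2c was 2.58 on irisin replicate 1 and 2.91 to 2.95 on the other irisin arrays. Cenpa was 1.89 on control replicate 4 and 2.06 on each of the other control arrays. Nuf2 was 0.39 on irisin replicate 3 and 0.22 to 0.24 on the other irisin arrays. Ska2 was -0.21 on irisin replicate 3 and -0.56 to -0.54 on the other irisin arrays, and its call was lost without that array.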

How the results depend on the processing

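The count of members called higher went from 0 to 16 with scaling to the spike-in probes, 35 with no scaling between arrays and 1 with the adjusted p alone (Nek2, which passed it in 11 of 20 alternatives), and it lay between 0 and 1 in the fits without 1 array, the 1 being Plk4 without irisin replicate 2. The count called lower went from 1 to 0 with spike-in scaling, 0 with no scaling, 2 with the adjusted p alone (Aurkb and Birc5, of which Birc5 passed it in the same direction in 8 of 20 alternatives) and 2 when any tested probe of a gene counted (Aurkb and Cdk1), and was 1 in every fit without 1 array. The median change went from -0.044 to 0.017 with cyclic loess, 0.53 when scaled to the spike-in probes and 0.69 when not scaled, and lay between -0.10 (without control replicate 4) and -0.00049 (without control replicate 2) in the fits without 1 array. Both counts and the median stayed near their values in the other settings tried, the test of the study's methods (0 higher and 1 lower) included. With no scaling, 19 of the 28 members with a change below 0 were called higher, 5 of the named members among them: Aurka (0.66), Bub1b (0.69), Cdc20 (0.63), Mybl2 (0.64) and Top2a (0.72). Of 419 values of the 21 named members under alternatives, 395 kept their side of the threshold, 2 lost the call (Aurkb when scaled to spike-ins or not scaled), 17 gained it and these 5 turned. Of the 395, 39 were values without a call whose sign differed. The cause of the unequal brightness of the groups before scaling was not tested.

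Replicate numbers are shared between the groups, and the labels do not say whether they pair the samples. Deviations of arrays with the same number correlated at 0.11, -0.35, -0.13 and 0.17. Those of arrays with different numbers correlated at -0.238 to 0.365, so no sign of pairing was seen, which does not exclude it. With the replicate number as a block, 0 members were called higher, 1 lower and the median was -0.044.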
